A study of Mus musculus with 6 samples.

Results

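Proteoglycans are proteins that carry long sulfated sugar chains, and the genes described here encode 1 such protein of secretory granules, the membrane proteoglycans that carry heparan sulfate, and enzymes that build this chain. The 10 genes were listed by name: serglycin (Srgn), the syndecans Sdc1, Sdc2 and Sdc4, the glypicans Gpc3 and Gpc4, the chain polymerases Ext1 and Ext2, and the sulfotransferases Ndst1 and Hs2st1. Every probe set that named 1 of these genes and no other was taken, which gave 23 of the 45037 probe sets of the array for 9 of the 10 genes. Ndst1 was not analysed here. A probe set is the group of short probes that together report 1 transcript. Of the 23 probe sets, 19 passed the filter on dim signal (a mean log2 signal over all arrays of at least 5.27, the 40th percentile) and 4 did not, and each of the 9 genes kept at least 1 probe set. The genes were chosen by role with earlier knockout and wild type signals of these arrays known, and Srgn was selected on its low signal in knockout cells. The differences of the 10 genes between the genotypes are therefore given as descriptions, and no test is read from them.

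Total RNA came from wild type and Setd2 knockout mouse embryonic stem cells (mESCs), pluripotent cells of the early embryo, with 3 arrays of each genotype described as biological repeats. Setd2 encodes the enzyme that trimethylates lysine 36 of histone H3 along transcribed genes, and the series asked which genes that depend on Setd2 are required to form primitive endoderm, the extraembryonic layer beside the epiblast. Both genotypes were of mixed strain 129SV/C57BL/6, received no treatment, and were grown on feeder cells, most of which were to be left behind on gelatin in a short plating step before 1 feeder-free passage. The labels give neither the deleted part of Setd2 nor whether each genotype was a single clone, and p-values for other genes measure the spread between these arrays.

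Serglycin is a small core protein crowded with chains, known from the granules of mast cells and other blood cells, where it holds proteases and mediators, and also from endothelial cells and from the parietal endoderm of the mouse. Syndecans cross the plasma membrane and glypicans are tied to it by a lipid anchor, and both present Fgf, Wnt, Bmp and Hedgehog ligands to their receptors. On these cores Ext1 and Ext2 together polymerise the heparan sulfate chain, Ndst1 exchanges acetyl for sulfate groups on glucosamine, and Hs2st1 sulfates the uronic acid. Mouse embryonic stem cells that lack the chain are known to leave the pluripotent state poorly, because Fgf signalling needs heparan sulfate as a coreceptor.

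The sequence before the start of transcription differs between Srgn and the other genes in base composition, so its windows are shown next to those of a syndecan and a glypican. The RefSeq promoter table (GRCm38.p6) matched 7 of the 10 genes, with 2 starts for Srgn, and had no entry for Sdc2, Ext1 or Ndst1. Each line below is the 250 bases before a start, read along the gene, with motif matches in capitals. The motifs, picked after the windows had been read, were the GC box GGGCGG, the octamer ATGCAAAT that POU factors bind, the ETS core CCGGAA, the cyclic AMP response core TGACGT and the TATA box TATAAA, each on both strands.
Srgn, upstream start, chr10:62527446-62527695, minus strand: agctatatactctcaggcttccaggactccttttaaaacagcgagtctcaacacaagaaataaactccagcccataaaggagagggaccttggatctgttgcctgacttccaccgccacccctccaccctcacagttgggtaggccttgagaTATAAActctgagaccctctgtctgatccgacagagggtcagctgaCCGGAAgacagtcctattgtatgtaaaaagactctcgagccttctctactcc
Srgn, downstream start, chr10:62507758-62508007, minus strand: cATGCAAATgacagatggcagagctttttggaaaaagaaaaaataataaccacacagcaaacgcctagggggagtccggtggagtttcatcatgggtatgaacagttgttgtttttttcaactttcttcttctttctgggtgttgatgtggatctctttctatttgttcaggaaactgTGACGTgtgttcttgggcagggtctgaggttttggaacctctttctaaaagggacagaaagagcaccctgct
Sdc4, chr2:164443189-164443438, minus strand: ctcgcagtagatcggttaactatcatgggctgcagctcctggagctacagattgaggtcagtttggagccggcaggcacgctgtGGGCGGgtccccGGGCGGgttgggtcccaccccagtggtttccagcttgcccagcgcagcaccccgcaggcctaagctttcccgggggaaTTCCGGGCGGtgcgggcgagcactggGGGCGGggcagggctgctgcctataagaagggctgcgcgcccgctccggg
Gpc3, chrX:52613975-52614224, minus strand: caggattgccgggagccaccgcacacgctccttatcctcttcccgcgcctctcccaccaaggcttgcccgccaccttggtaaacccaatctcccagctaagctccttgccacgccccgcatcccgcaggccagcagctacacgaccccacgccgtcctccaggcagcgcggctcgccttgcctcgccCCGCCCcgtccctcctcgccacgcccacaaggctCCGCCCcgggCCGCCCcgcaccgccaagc

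The Srgn windows held 5 CpG dinucleotides at the upstream start and 3 at the downstream start, with 49.6% and 42.8% G and C. The windows of the other 6 genes held between 10 (Sdc1) and 25 (Gpc3) CpG dinucleotides, against a median of 6 over all 32851 windows of the table. Their share of G and C ran from 54.8% (Ext2) to 71.6% (Gpc3), against a median of 52.4% over all windows. A GC box was found in the windows of Sdc1, Sdc4, Gpc3, Gpc4 and Hs2st1. The Ext2 window and both Srgn windows had none, and 32.7% of all windows held one. The upstream Srgn window held a TATA box 98 to 93 bases before the start (12.4% of all windows hold one) and an ETS core 52 to 47 bases before it (12%). The downstream window held the octamer 249 to 242 bases before its start (1.6% of all windows) and the cyclic AMP response core 72 to 67 bases before it (6.47%). In Sdc4 the ETS core overlaps a GC box. These matches describe letters in a window, and the arrays measured no binding.

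On the arrays, values are log2 MAS5 signals, where MAS5 is the summary method of Affymetrix for its probe sets, and 1 unit on the log2 scale is a 2-fold step. The single Setd2 probe set read between 10.30 and 10.31 on the wild type arrays and between 9.37 and 9.60 on the knockout arrays. The knockout signal was 56.8% of the wild type signal. Whether the probe set lies in the deleted part is not given, so it is no firm check of the labels. The Y-linked gene Eif2s3y read 4.46 to 5.16 on the wild type arrays and 11.16 to 11.57 on the knockout arrays (1417210_at), and the genes of chromosome 8 had a median difference of -0.34. Genotype and cell line therefore cannot be told apart. None of the 10 genes lies on chromosome 8 or Y. The first principal component (38.0% of variance) separated array number 1 of each genotype from numbers 2 and 3, so values are also given by array number.

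Srgn stood far from the other genes listed. Its 1 probe set (1417426_at; chromosome 10) read 9.26, 9.47 and 8.85 on wild type arrays 1, 2 and 3 and 6.51, 7.11 and 6.26 on knockout arrays 1, 2 and 3. Every knockout array lay below every wild type array, and the gap between the groups was wider than the range within either. The means were 9.19 ± 0.32 in wild type and 6.63 ± 0.44 in knockout cells (SD, n = 3 each), a difference of -2.57 ± 0.26 (SE) with a 95% interval of -3.17 to -1.96. The knockout signal was 16.9% of the wild type signal. It was the 19th lowest difference among all 27022 probe sets tested. Between arrays of the same number the difference was -2.76, -2.36 and -2.58, so it was of like size in the arrays numbered 1 and in the others. In cultures such as these, fewer cells of a type and less RNA per cell cannot be told apart.

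**Figure D1:**
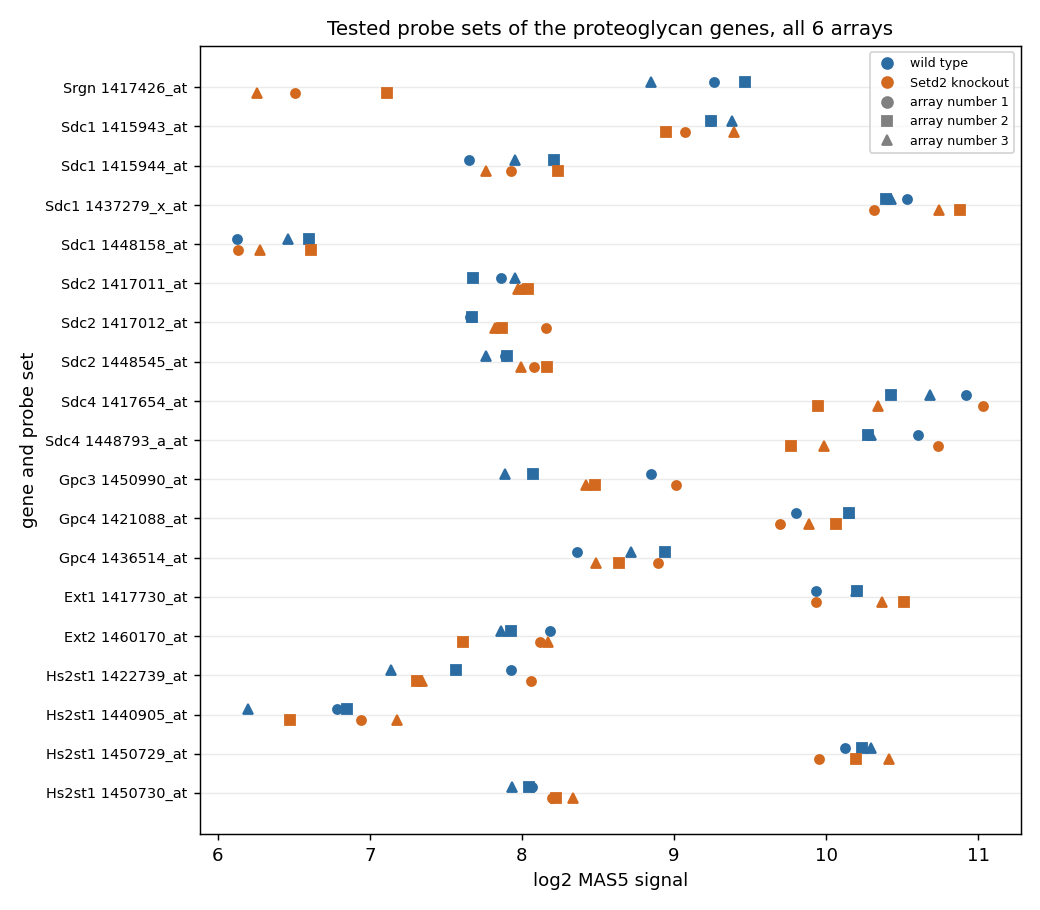
Log2 MAS5 signal (horizontal axis) at the 19 tested probe sets of the 9 genes (vertical axis), with 1 point per array; colour gives the genotype and shape the array number. Only at Srgn are the knockout arrays, from 6.26 to 7.11, far below the wild type arrays, from 8.85 to 9.47.

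The syndecans gave no difference of that size. Sdc2, a syndecan of mesenchymal and early embryonic cells, was slightly higher on knockout arrays at each of its 3 tested probe sets. The brightest (1448545_at) read 7.89, 7.90 and 7.76 on wild type and 8.08, 8.17 and 7.99 on knockout arrays, a difference of 0.23 ± 0.15 (SE; 95% interval -0.12 to 0.58). The other tested probe sets differed by 0.28 (1417012_at) and 0.17 (1417011_at). At all 3 the knockout arrays lay above all wild type arrays without overlap, but the probe sets report 1 gene and the same RNA and so are not separate observations. A further Sdc2 probe set (1431474_at), below the filter, differed by -0.28, with overlapping groups.

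Sdc4, the syndecan of focal adhesions, followed the array number more than the genotype. Its brighter probe set (1417654_at) read 10.92, 10.43 and 10.68 on wild type and 11.03, 9.95 and 10.34 on knockout arrays, and the groups overlapped. The difference of the means was -0.24 ± 0.26 (SE; 95% interval -0.83 to 0.36), made up of 0.11 between the arrays numbered 1, -0.48 between those numbered 2 and -0.34 between those numbered 3. Its other probe set (1448793_a_at) gave 0.13, -0.51 and -0.31 in the same order. In both genotypes the array numbered 1 was the highest at both probe sets.

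Sdc1, the syndecan of epithelial cells, had 4 tested probe sets whose differences lay on both sides of 0. The brightest (1437279_x_at) read 10.53, 10.40 and 10.43 on wild type and 10.31, 10.88 and 10.75 on knockout arrays, a difference of 0.19 ± 0.16 (SE; 95% interval -0.17 to 0.55). The others differed by 0.04 (1415944_at), -0.06 (1448158_at) and -0.15 (1415943_at). The groups overlapped at all 4, and the sign depended on the probe set.

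Both glypican genes lie on the X chromosome, whose tested genes had a median difference of 0.04. Gpc3, the glypican that restrains growth and Hedgehog signalling, had 1 probe set (1450990_at), which read 8.85, 8.08 and 7.89 on wild type and 9.02, 8.48 and 8.42 on knockout arrays. The knockout array was the higher of each numbered pair, by 0.17, 0.40 and 0.53, yet the groups overlapped because the arrays numbered 1 were high in both genotypes. The difference of 0.37 ± 0.28 (SE; 95% interval -0.27 to 1.00) was the highest among the tested probe sets of the list. Gpc4, a glypican of pluripotent and neural precursor cells, read 9.80, 10.15 and 10.15 on wild type and 9.70, 10.06 and 9.89 on knockout arrays (1421088_at), a difference of -0.15 ± 0.15 (SE; 95% interval -0.50 to 0.20). Its other probe set (1436514_at) had a difference that rounds to 0.00 (95% interval -0.44 to 0.44), with 0.53 between the arrays numbered 1 and -0.30 and -0.23 between the others.

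The chain polymerases showed little difference where they were measured well. Ext1 (1417730_at) read 9.93, 10.21 and 10.19 on wild type and 9.93, 10.52 and 10.36 on knockout arrays, a difference of 0.16 ± 0.17 (SE; 95% interval -0.23 to 0.55). Ext2 (1460170_at) read 8.18, 7.93 and 7.86 on wild type and 8.12, 7.62 and 8.17 on knockout arrays, a difference of -0.02 ± 0.20 (95% interval -0.49 to 0.44). The groups overlapped at both genes. Dim probe sets of the same genes spread widely: 1447319_at for Ext2 read 4.04, 1.91 and 1.51 on wild type and 4.66, 4.36 and 4.98 on knockout arrays, while 1447743_x_at for Ext2 differed by -0.59 and 1458054_at for Ext1 by 0.64. All 3 lay below the filter, and those of Ext2 pointed in opposite directions.

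Hs2st1, which adds sulfate to the uronic acid of the chain, had 4 tested probe sets with differences of -0.03, 0.03, 0.24 and 0.26. The brightest (1450729_at) read 10.13, 10.24 and 10.29 on wild type and 9.96, 10.19 and 10.41 on knockout arrays, with a 95% interval of the difference from -0.36 to 0.30. At 1450730_at the wild type arrays read 8.07, 8.04 and 7.94 and the knockout arrays 8.20, 8.22 and 8.34, without overlap and with a difference of 0.24 ± 0.15 (SE). The dimmest (1440905_at) ranged from 6.20 to 7.18 and overlapped. The probe sets of this gene thus gave a span of 0.29 among their differences, wider than the difference at the brightest of them.

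Over the whole list, 1 of 19 tested probe sets, that of Srgn, was past the threshold of 0.05 on limma's adjusted p, against 0.374% of all 27022 tested probe sets called lower, 0.274% called higher and 0.648% called either way. Because the gene was listed for this contrast, nothing is read from that count. It was the same with the replicate number as a block, where 7.88% of all probe sets were called, 4.39% lower and 3.49% higher. The knockout arrays lay all above the wild type arrays at 4 of the 19, of which 3 were those of Sdc2, and all below at 1, so that 5 did not overlap (26.3%, with 18.1% among all tested probe sets, 9.16% above and 8.99% below). Outside Srgn the 18 differences ran from -0.24 to 0.37, and the median of their sizes was 0.17, beside 0.18 over all tested probe sets. All 18 of their 95% intervals held 0, and 17 lay within 2-fold in both directions. The exception was Gpc3, whose upper bound of 1.00 touches 2-fold. Over all 19 the median difference was 0.03, and over all tested probe sets 0.01.

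**Figure D2:**
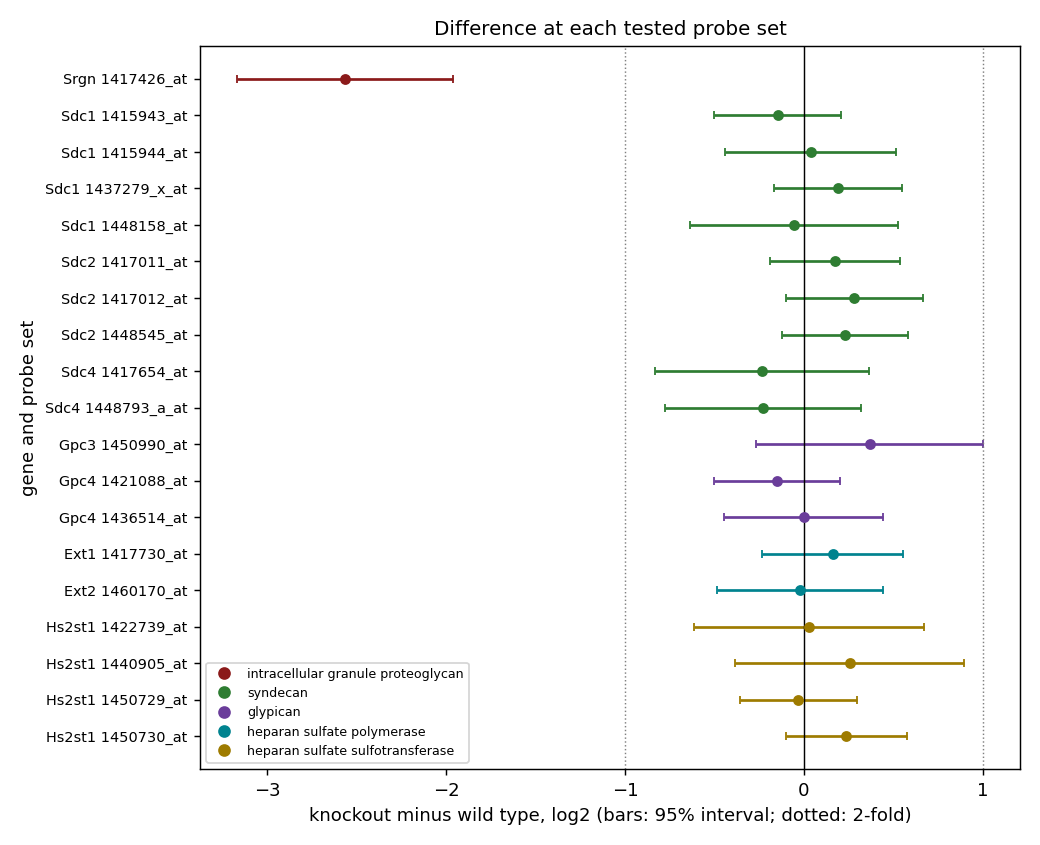
Knockout minus wild type difference on the log2 scale (horizontal axis) at each of the 19 tested probe sets, with 95% intervals as bars, dotted lines at 2-fold and colours for the role of the gene. Srgn lies at -2.57, and the other 18 lie between -0.24 and 0.37.

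Several probe sets of the list differed by array number. At 12 of the 19 tested probe sets the array numbered 1 lay on the same side of the mean of the other 2 in both genotypes, higher at 6 and lower at 6. Among the largest of these shifts were those of Gpc3 (0.86 in wild type and 0.57 in knockout cells), of Sdc4 (0.36 and 0.89 at 1417654_at) and of the Hs2st1 probe set 1422739_at (0.57 and 0.73). Ext1 was lower on the arrays numbered 1, by 0.27 and 0.51. Markers of feeder fibroblasts differed by array number too, with a mean log2 level of 7.79 (wild type) and 7.60 (knockout) on number 1 against 8.31 to 8.81 elsewhere. Their part in these shifts was not tested. The difference of Srgn between the genotypes was about as large at each number. At 7 of the 19 probe sets the knockout minus wild type difference had the same sign at all 3 numbers. For neither this count nor that of the 12 was the share over all tested probe sets taken. Probe sets of 1 gene were counted separately, and nothing is read about the list from either count.

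**Figure D3:**
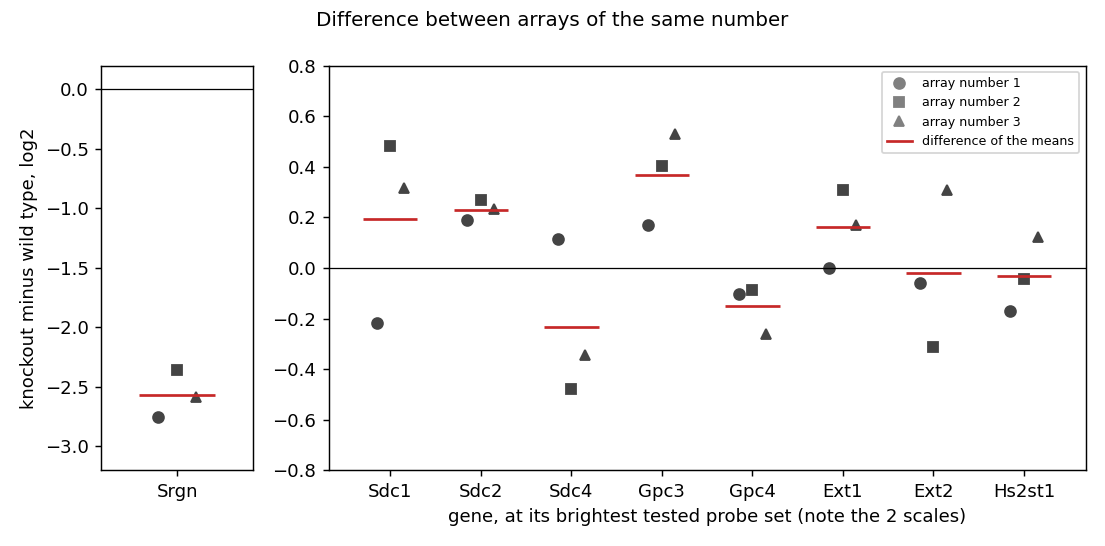
Knockout minus wild type difference on the log2 scale between arrays of the same number (vertical axes, with a scale of its own for Srgn), for each gene at its brightest tested probe set, with red lines for the difference of the means. The points of Srgn lie between -2.76 and -2.36, while those of Sdc4 run from -0.48 to 0.11 and those of Sdc1 from -0.22 to 0.48.

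The question whether other genes of glycosaminoglycan making moved with Srgn was put to 8 lists that held 99 further genes, of which 76 had a tested probe set. Each gene was taken at its brightest one. None of the 76 passed limma's threshold in either direction, beside 0.736% of all 12915 genes (0.48% lower and 0.256% higher). An unadjusted p under 0.05 was reached by 10 of them (13.2%), 6 lower and 4 higher, and by 13.4% of all genes. With the replicate number as a block, 4 fell and 2 rose, which is 7.89% beside 9.87% of all genes (5.75% lower and 4.13% higher). The median difference of the 76 was 0.04, and that of all genes 0.00. The limma values of the 6 genes follow by role, and these 6 were chosen after their values were seen, except Gusb and Dse, which were also among the 2 brightest of their lists.

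Among other core proteins that carry heparan sulfate, 0 of 8 passed with or without the block. Their differences all lay above 0, from 0.03 (Hspg2, perlecan) to 0.49 (Sdc3, the neural syndecan), with a median of 0.19. Only Col18a1, the collagen XVIII of basement membranes, had knockout arrays (11.36, 11.44 and 11.39) that all lay above the wild type arrays (11.25, 11.23 and 11.26), at a difference of 0.15 ± 0.09 (SE; adjusted p = 0.574). The other tested probe set of Col18a1 differed by 0.24 (limma adjusted p = 0.403), also without overlap. Agrn, agrin, differed by 0.16 ± 0.17 (adjusted p = 0.807).

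The linker region that joins each chain to its protein is made by a short series of enzymes from nucleotide sugars. Of 15 tested genes of this list 0 passed without the block and 1 fell with it. That gene was Pxylp1, whose phosphatase removes a phosphate that Fam20b puts on the xylose of the linker. Its probe set 1456735_x_at read 10.32, 9.08 and 9.07 on wild type and 9.30, 7.48 and 7.38 on knockout arrays. The knockout array was the lower of every numbered pair, but the arrays numbered 1 were high in both genotypes and the groups overlapped. The difference was -1.43 ± 0.54 (SE; adjusted p = 0.341 in limma and 0.000357 once replicate numbers were blocked). Its other tested probe set differed by -1.59 (adjusted p = 0.461, and 0.0237 with the block). Ugdh, the dehydrogenase that makes the uronic acid precursor, differed by -0.43 ± 0.15 (adjusted p = 0.318), and Ugp2, which makes the nucleotide sugar before it, by -0.08 (adjusted p = 0.901). The other tested probe sets of Ugp2 differed by between 0.01 and 0.48, with overlapping groups.

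Of the 10 other tested enzymes that modify heparan sulfate, 0 passed without the block and 1 rose with it. Hs6st2, an X-linked sulfotransferase that acts on glucosamine at the 6-O position, read 8.31, 8.97 and 8.69 on wild type and 9.25, 9.96 and 9.72 on knockout arrays, with no overlap. The difference was 0.98 ± 0.23 (SE), a signal 1.98-fold higher (adjusted p = 0.125 in limma and 0.000473 once replicate numbers were blocked). Its other 3 probe sets lay below the filter. The brightest enzyme of the list, the extracellular sulfatase Sulf2, differed by 0.05 (95% interval -0.23 to 0.34), and the epimerase Glce by 0.00 at 2 decimals (95% interval -0.31 to 0.30). The other tested probe sets of Sulf2 differed by -0.01, with overlapping groups, and by 0.15, without overlap. The remaining polymerase genes Extl3 and Extl2 differed by -0.10 and 0.02, and 0 of the 3 tested passed with or without the block.

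Without knockout replicate 1 and with no block, Hs6st2 (limma adjusted p = 0.0356) and Pxylp1 (0.0347) passed. Over the other alternatives without a block their adjusted p reached 0.456 and 0.642.

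Lysosomal enzymes that break the chain down gave 0 of 8 past the threshold, and 1 fell with the block. Gusb, beta-glucuronidase, differed by -0.41 ± 0.14 (SE; adjusted p = 0.316 in limma and 0.0476 once replicate numbers were blocked), with knockout arrays all below wild type arrays, and its other tested probe set by -0.26. Ids, iduronate sulfatase, differed by 0.28 ± 0.14 (adjusted p = 0.516), with knockout arrays all above wild type arrays. Its other tested probe set differed by 0.31, with overlapping groups. Naglu (0.49) and Arsk (0.62), named after their values were seen, also had knockout arrays all above wild type arrays.

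The neighbouring pathway of chondroitin and dermatan sulfate, the other chains that serglycin and syndecans can carry, gave 0 of 13 enzymes past the threshold. With the block 1 fell and 1 rose, and they were the paired epimerase genes of dermatan sulfate. Dse read 9.97, 9.91 and 10.12 on wild type and 9.28, 9.44 and 9.55 on knockout arrays, a difference of -0.58 ± 0.13 (SE; adjusted p = 0.118 in limma and 0.00560 once replicate numbers were blocked). Dsel read 8.23, 8.24 and 8.32 on wild type and 8.88, 8.61 and 8.76 on knockout arrays, a difference of 0.48 ± 0.15 (adjusted p = 0.236, and 0.0446 with the block). At both genes the groups did not overlap, and the directions were opposite. The brightest gene of the list, the chondroitin polymerase gene Chsy1, differed by -0.01 (95% interval -0.29 to 0.27).

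Of 11 other matrix proteoglycan genes 0 passed with or without the block. The brightest, Cd44 and Bgn, ranged from 8.49 to 11.17 and from 8.46 to 10.75 over the arrays, lowest on the arrays numbered 1 as the feeder markers were, and differed by -0.15 and -0.18 between the genotypes. Of 8 genes for shedding and binding of syndecans, 0 passed and 1 fell with the block, Mmp14, a membrane protease that cleaves syndecans, at -0.58 ± 0.29 (SE; adjusted p = 0.51 in limma and 0.0203 once replicate numbers were blocked). Its other tested probe sets differed by 0.15 and -0.14. Sdcbp (syntenin), which binds the syndecan tail, differed by -0.12 at its brightest probe set, with overlapping groups. Its other tested probe sets differed by -0.47 (1450941_at), with knockout arrays all below wild type arrays, and by -0.16, with overlap. The protease gene Adam10 differed by -0.17, and by -0.06 at its other tested probe set.

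**Figure D4:**
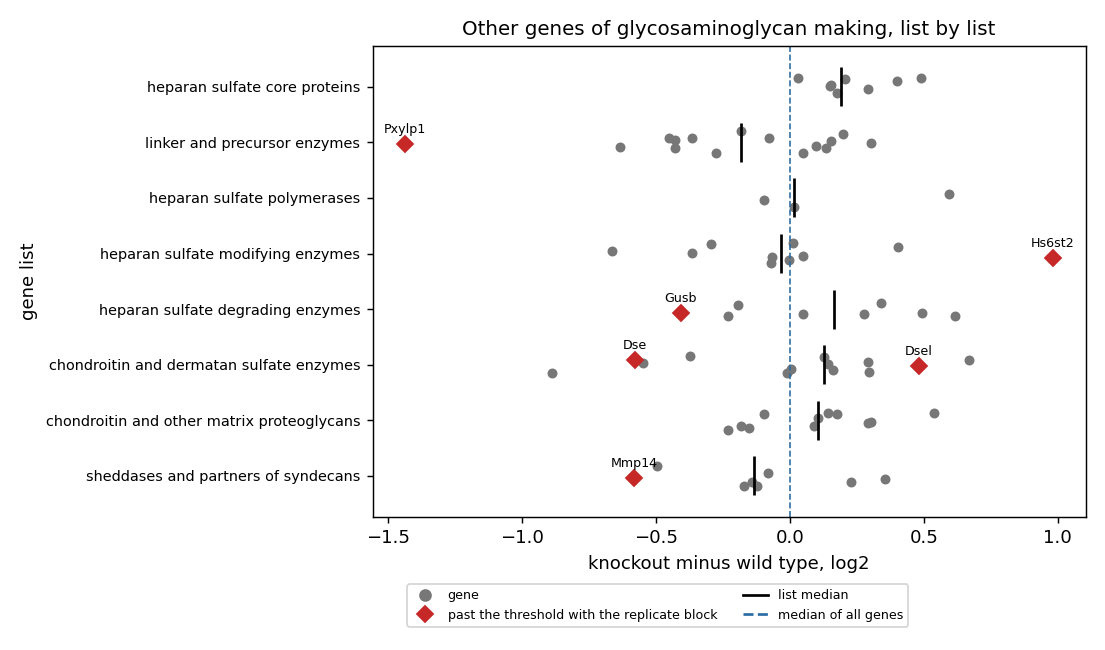
Knockout minus wild type difference on the log2 scale (horizontal axis) for the 76 further genes, list by list (vertical axis), each at its brightest tested probe set. Red diamonds mark the 6 genes past the threshold with the replicate block, black lines the list medians and the dashed line the median of all genes.

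Because Srgn is known from several cell types, marker lists were read beside it. Of 14 mast cell and granule genes, the usual partners of serglycin, 13 lay below the filter and Fcer1a was listed at 0 on at least 1 array. The remaining gene, Kit, read 9.34, 8.15 and 8.93 on wild type and 9.60, 8.91 and 8.76 on knockout arrays. The summed signal of the list was 588.1 to 908.3 in wild type and 676.6 to 982.6 in knockout cells. Kit was the brightest gene in that sum, so the sum tells little of the other 13. Of 10 blood cell markers with a probe set, Ptprc, Itgam and Hba-a1 lay below the filter and none was at 0. Of the 7 tested, 0 passed limma's threshold with or without the block, 4 lay below 0 and 3 above. Their differences ran from -0.77 (Tyrobp, groups overlapping) to 1.14 (Fcer1g, knockout arrays all above wild type arrays), and 1 had an unadjusted p under 0.05. The summed signal of the blood cell list overlapped between the genotypes, at 2771.8 to 3558.5 and 2281.1 to 3440.2. Laptm5 was the brightest gene in that sum, with a mean log2 signal of 10.84, so the sum tells little of the others. Of 10 endothelial markers, Cdh5, Tie1, Emcn and Vwf lay below the filter and none was at 0. Of the 6 tested, 0 passed limma's threshold with or without the block, and 1 had an unadjusted p under 0.05. The 4 below 0 were Esam (-0.51), Tek (-0.40), Egfl7 (-0.16) and Flt1 (-0.12). The 2 above were Kdr (0.81) and Pecam1 (0.22). The knockout arrays lay all below the wild type arrays at Esam and Tek and all above at Kdr. The mean log2 levels of the list overlapped between the genotypes, at 5.99 to 6.25 in wild type and 5.77 to 6.11 in knockout cells, while the summed signals, 1642 to 1768 and 1386 to 1620, did not. Their part in the result for Srgn was not tested.

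Markers of primitive and parietal endoderm had a lower mean level in knockout cells, and their members went both ways. Of 22 listed, 20 were tested, Foxa2 lay below the filter and none was at 0. Of the 20, 13 lay below 0 and 7 above, with a median difference of -0.47 beside 0.00 over all genes. The limma test called 2 lower, Gata6 and the collagen gene Col4a1, and 0 higher, beside 0.48% and 0.256% of all genes. Leaving out knockout array 3, wild type array 2 or wild type array 3 left 0 called. Leaving out wild type array 1 (Col4a1) or knockout array 2 (Gata6) left 1, and without knockout array 1 there were 3, with Lama1 added. On all 6 arrays 0 were called without the intensity trend. Only Col4a1 was called with no filter on dim signal, and only Gata6 with quantile normalization or without chromosomes 8 and Y. With the replicate number as a block 9 fell and 1 rose, the keratin gene Krt18, beside 5.75% and 4.13% of all genes. Krt18 differed by 0.51, Krt8 by 0.35, Fst by 0.15 and Gata4 by 0.03. Of the tested markers 3, Col4a1 among them, lie on chromosome 8. Over the 21 listed markers with a probe set, the mean log2 level was 8.40 to 8.45 on wild type and 7.68 to 7.84 on knockout arrays. The summed signal of these 21 was 14661.4 to 16276.3 and 11896.6 to 14368.5, without overlap. The part of these markers in the result for Srgn was not tested. The list was drawn up with these values known from earlier work on the same arrays. Feeder markers (Lum and Fap below the filter, none at 0) had summed signals of 19685 to 34972 in wild type and 20974 to 33271 in knockout cells. Of the 21 tested, 13 lay below 0 and 8 above, and 0 passed limma's threshold. With the block 2 rose, Fn1 (0.43, limma adjusted p = 0.00327) and Pdgfrb (0.81, 0.0430). At both genes the knockout arrays lay all above the wild type arrays. Markers of embryonic stem cells were all above the filter, with sums of 112498 to 113846 and 109092 to 113838.

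The 5 genes whose levels over the 6 arrays were most like those of Srgn, among 12301 ranked by Pearson correlation, were Pde4d (r = 0.990), Ppef2 (0.988), Tti2 (0.987), Vps36 (0.987) and Gata6 (0.986). These correlations describe 6 arrays that fall into 2 genotypes and carry no p. Pde4d encodes a cyclic AMP phosphodiesterase and differed by -0.42 between the genotypes. Tti2 and Vps36 lie on chromosome 8 and differed by -0.51 and -0.58, beside the median of -0.34 for that chromosome. Gata6, the transcription factor that directs primitive endoderm fate, read 7.68, 7.99 and 7.80 on wild type and 6.07, 6.67 and 5.82 on knockout arrays (1425464_at), a difference of -1.63. In both Srgn and Gata6, number 2 was the highest array of each genotype and number 3 the lowest of the knockout arrays. The lowest wild type array was number 3 in Srgn (8.85) and number 1 in Gata6 (7.68). Gata6 was picked for its likeness to Srgn on these arrays, so a shared order follows from the choice and nothing is read from it.

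**Figure D5:**
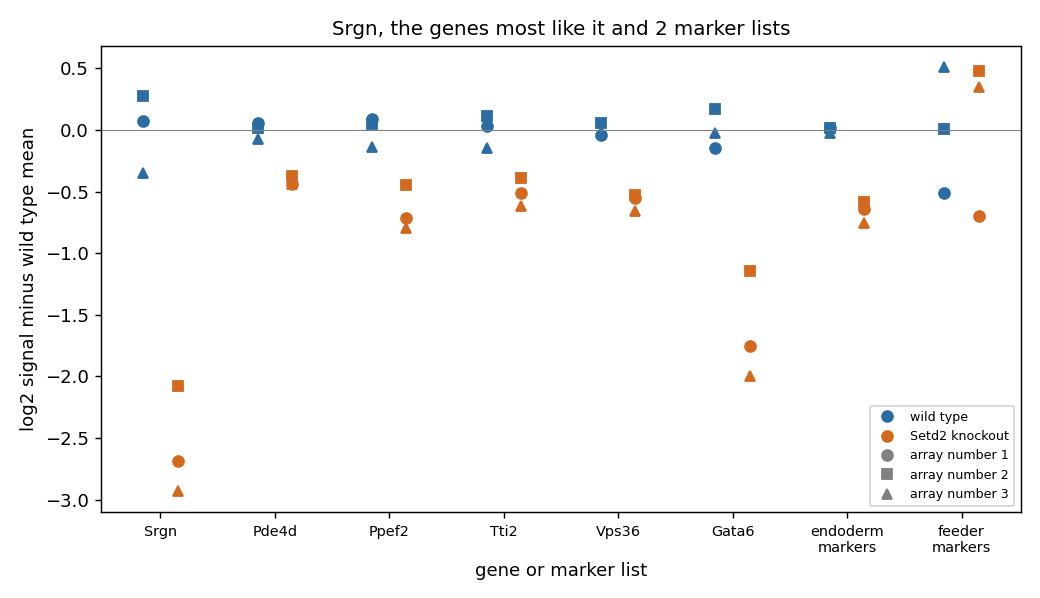
Log2 signal minus the wild type mean (vertical axis) for Srgn, the 5 genes most like it and the mean of 2 marker lists (horizontal axis), with 1 point per array, colour for genotype and shape for array number. Srgn and Gata6 differ most, by -2.57 and -1.63, and the feeder markers follow the array number.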

How the data were processed

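RNA of 3 wild type and 3 Setd2 knockout mESC samples was measured on 6 arrays, assigned from their titles. The deposited values are log2 signals from MAS5, per the submitters' processing notes, with no version given in the sources used here. The log2 scale was settled from the values: back on the linear scale, the trimmed means (2% off each end) of the arrays lay between 497.0 and 497.3, and 280 to 454 values per array were exactly 0. No further normalization was applied. Detection calls were not used here. For arrays, their number limits the precision.

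Of 45037 probe sets, 34945 named 1 gene, 932 several and 9160 were unnamed here. Symbols were updated through gene identifiers against a RefSeq table (GRCm38.p6) for 34741. Probe sets below the 40th percentile of the mean (5.27) were left out. The other 27022 were fitted with limma 3.58.1 in R 4.3.3 (lmFit, eBayes with an intensity trend). Tests were two-sided, with Benjamini-Hochberg adjustment over all tested and a threshold of 0.05. The fit was tried on simulated data with independent noise and no shared effect of array number, unlike these arrays. Motifs were searched in the RefSeq promoter windows.

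The members and lists were chosen with earlier results of these data known. The genes named were all members, up to 4 genes past the threshold in each pathway list or its 2 brightest, and the 5 most like Srgn. Other genes (ends of a range, calls with the block, markers, Y-linked genes) were named after their values were seen.

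Deviations from the genotype means correlated at r = 0.50, 0.23 and 0.24 between arrays of the same number, all above 0.1, so the numbers were treated as pairs and the fit with the number as a block stands beside results it changes. The labels do not say what a number shares. Arrays of unlike number reached r = 0.23 (wild type 2 with knockout 3), as high as the arrays numbered 2. These values thus set apart only the arrays numbered 1, and the p-values with the block rest on the pairing. Alternatives were other filters, no trend, quantile normalization, median centring, a floor, the block, each array left out, 1 mean per gene, and the table without chromosomes 8 and Y.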

Additional observations from a re-analysis of the deposited data

How the results depend on the processing

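The count of listed probe sets past the threshold was 1, that of Srgn, under each of 14 alternatives, those with 1 array left out included (1 to 1). Srgn was selected on its low knockout signal on these same arrays, so nothing is read from that count. The difference of Srgn stayed between -2.81 and -2.38. Among the 8 other genes, Sdc4, Ext2 and Hs2st1 changed sign under 1, 2 and 3 alternatives, and no difference moved by more than the spread between replicates. The count of other pathway genes was 0, rose to 6 with the replicate block (4 lower and 2 higher), and ranged from 0 to 2 with 1 array left out, the 2 being Hs6st2 and Pxylp1 without knockout replicate 1. The cause was not tested. It was 0 under the other alternatives. With 3 arrays per genotype, intervals of the well measured members leave room for differences of up to 2-fold in Gpc3. The signals near or below the filter, as in the dim probe sets of Ext2 and Sdc2, are too noisy to order.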

Other observations

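The genes beside Srgn on chromosome 10 did not share its difference. The 6 nearest tested genes, 3 on each side (Supv3l1, 4930507D05Rik, Vps26a, Kifbp, Ddx21 and Ddx50), differed by between -0.20 and 0.07, against -2.57 for Srgn. These neighbours were chosen by gene order alone, after the value of Srgn was known.

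The heparan sulfate genes Hs6st2, Gpc4 and Gpc3 follow one another on the X chromosome among the genes tested, with no other tested gene between them. Their differences were 0.98, -0.15 and 0.37, in that order. The 3 tested genes on each side of the group (Stk26, Rap2c, Mbnl3, Ccdc160, Phf6 and Hprt) differed by between -0.52 and 0.17. Y-linked genes parted the genotypes as well, and a difference in sex chromosomes between the lines cannot be told apart from the genotype.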
